A study of Mus musculus with 6 samples.

Results

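The voltage-gated and potassium ion channel genes were taken as every gene whose single annotated symbol begins with Kcn, Cacn or Scn followed by a letter or digit. This naming rule found 123 of the 18193 genes on the arrays, covered by 256 probe sets, and used no measured value. The family itself was chosen with earlier results of these data known, so its shares against all genes are descriptive. The arrays measured RNA of mouse forelimb buds at E10.5, each cut into a proximal and a distal piece, with 1 array for each part in each of 3 conditions. All embryos were of the CD1 background. The controls carried the genotype label Ring1A-/-, although their description reads wild type. The double knockout (dKO) was Prx1-Cre;Ring1A-/-;Ring1Bfl/fl, so by its labels it lacked Ring1A like the controls and additionally lost Ring1B where Prx1-Cre acts, which is the early limb mesenchyme and not every cell of the bud. The other treated group was wild type and received all-trans retinoic acid (RA), at 100 mg/kg by oral gavage of the mother at E10.25, so RA exposure and the Ring1A label changed together. The labels name no number of embryos per array, and with 1 array per group no difference between arrays has a replicate check.

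Channels of these families are built from pore subunits, which form the path for the ion, and auxiliary subunits, which set gating, trafficking and level at the membrane. Voltage-gated calcium and sodium pores open on depolarisation and carry inward current, whereas potassium pores of the voltage-gated, inward rectifier and two-pore families carry the currents that return the membrane to rest or hold it there. These genes are best known from nerve and muscle, and membrane potential and calcium entry have also been studied in developing limb mesenchyme and cartilage. RING1A and RING1B are the ubiquitin ligases of Polycomb repressive complex 1, which holds many developmental and neuronal genes silent, mostly at promoters rich in CG dinucleotides.

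Signals are the authors' MAS5 values, on a linear scale, and where a gene had several probe sets the one with the highest mean log2 was used. The median of each array, from 59.5 to 76.1, served as a floor: lower signals were set to it before log2 was taken, and a difference against a floored array is a lower bound, written "at least". The RA arrays stood apart from the other 4. Xist had signals of 12.9 and 29.5 on them against 3017 to 3688 elsewhere, the Y-linked Eif2s3y had 2783 and 3064 against at most 12.3, and the spike-in probe set BioB-5 had 111 and 102 against 775 to 939. The proximal RA array also had the lowest correlations with the others over all genes, r of 0.931 to 0.945, where the control pair reached 0.968. RNA of Ring1, the gene for RING1A, had signals of 624 and 968 on the control, 402 and 578 on the dKO and 419.8 and 245 on the wild type RA arrays, an order that the Ring1A-/- labels do not give. RNA of Rnf2, the gene for RING1B, had 2042 and 2070 on the control and 2147 and 1887 on the dKO arrays. The sources used here do not place either probe set relative to the deleted sequence, so neither checks the genotypes. Limb mesenchyme markers (Prrx1, Prrx2, Twist1, Msx1, Tbx5 and Meis2) were above the floor on all arrays.

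Of the 123 channel genes, 57 were above the floor on at least 1 array, 20 were above it on all 6, and 66 were at the floor on every array. The number above the floor was 29 on the proximal and 31 on the distal control array, 43 and 41 for the dKO, and 38 and 30 for RA. Detection differed between families. Calcium auxiliary subunits were above the floor on at least 1 array for 11 of 15 genes and calcium pores for 6 of 9. Voltage-gated potassium pores reached this for 10 of 22, potassium auxiliary subunits for 7 of 15, two-pore channels for 5 of 12, inward rectifiers for 5 of 15, calcium- or sodium-activated potassium pores for 3 of 8, modifier potassium subunits for 3 of 9, voltage-gated sodium pores for 3 of 8 and sodium auxiliary subunits for 2 of 3. The 3 epithelial sodium channel genes (Scnn prefix) were at the floor throughout. A signal below the floor does not show that a transcript was absent, and in tissue of mixed cells fewer cells of a type and less RNA per cell cannot be told apart.

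Several channel genes were well above the floor on every array. Scnm1, which shares the prefix but encodes an RNA-splicing factor, had signals of 3158 and 3137 on the proximal and distal control arrays, 3526 and 3462 in the dKO and 3038 and 2976 in RA. Scn2b, an immunoglobulin-domain sodium channel auxiliary subunit, had 2516 and 1712 on the control, 2564 and 2436 on the dKO and 2849 and 2540 on the RA arrays. Scn4b, of the same auxiliary class, had 551 and 647, 755 and 1067, and 452 and 825 in that order. Cacng8, an auxiliary subunit that also binds AMPA receptors, ranged from 308 to 490.5 over the 6 arrays. These genes did not pass the fit described below for any effect.

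Genes whose human counterparts are linked to syndromes with skeletal or facial findings were of both kinds. Cacna1c, an L-type calcium pore, had signals of 347 and 281 on the control, 471 and 505 on the dKO and 265 and 326 on the RA arrays. Cacna1g, a T-type calcium pore that opens at low voltage, ranged from 252 to 417, with both extremes on the RA arrays. The inward rectifiers Kcnj2 and Kcnj8 and the voltage-gated pore Kcnh1 were at the floor on all 6 arrays. Neither Cacna1c nor Cacna1g passed the fit for any effect.

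The comparison of dKO with control asked, by the genotype labels, which channel transcripts differed when Ring1B was lost in addition to Ring1A. Channel genes were higher in the dKO far more often than lower. In the proximal part 12 of the 45 channel genes above the floor on either array, or 26.7%, were at least 2-fold higher, where 4.07% of all genes were, and 0 were 2-fold lower, where 0.363% were. In the distal part 15 of 47, or 31.9%, were at least 2-fold higher, against 5.32% of all genes, and 0 were lower, against 0.524%. In both parts 10 of 49 were 2-fold higher, against 2.8% of all genes, and 0 were lower, against 0.177%. Those 10 were Cacna1d, Cacna1h, Cacna2d2, Cacng4, Kcnd3, Kcne1l, Kcng1, Kcnk2, Scn1a and Scn8a.

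A gene that enters only because its dKO signal is above the floor has to be higher, so the genes were also read by their control signal. Of those above the floor in the proximal control, 6 of 29 channel genes (20.7%) were at least 2-fold higher in the dKO, against 2.82% of all such genes. Of those at the floor there, 6 of 94 (6.38%) were at least 2-fold above it, against 2.24%. The distal part gave 6 of 31 (19.4%) against 3.7%, and 9 of 92 (9.78%) against 2.95%. Over channel genes above the floor on both arrays, the median log2 difference was 0.41 in the proximal part (27 genes) and 0.53 in the distal part (25 genes), with 0.00 and -0.01 over all such genes. Of these channel genes 19 were above 0 in the proximal part (70.4%, against 50.8% of all genes) and 22 in the distal part (88.0%, against 48.9%).

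**Figure D1:**
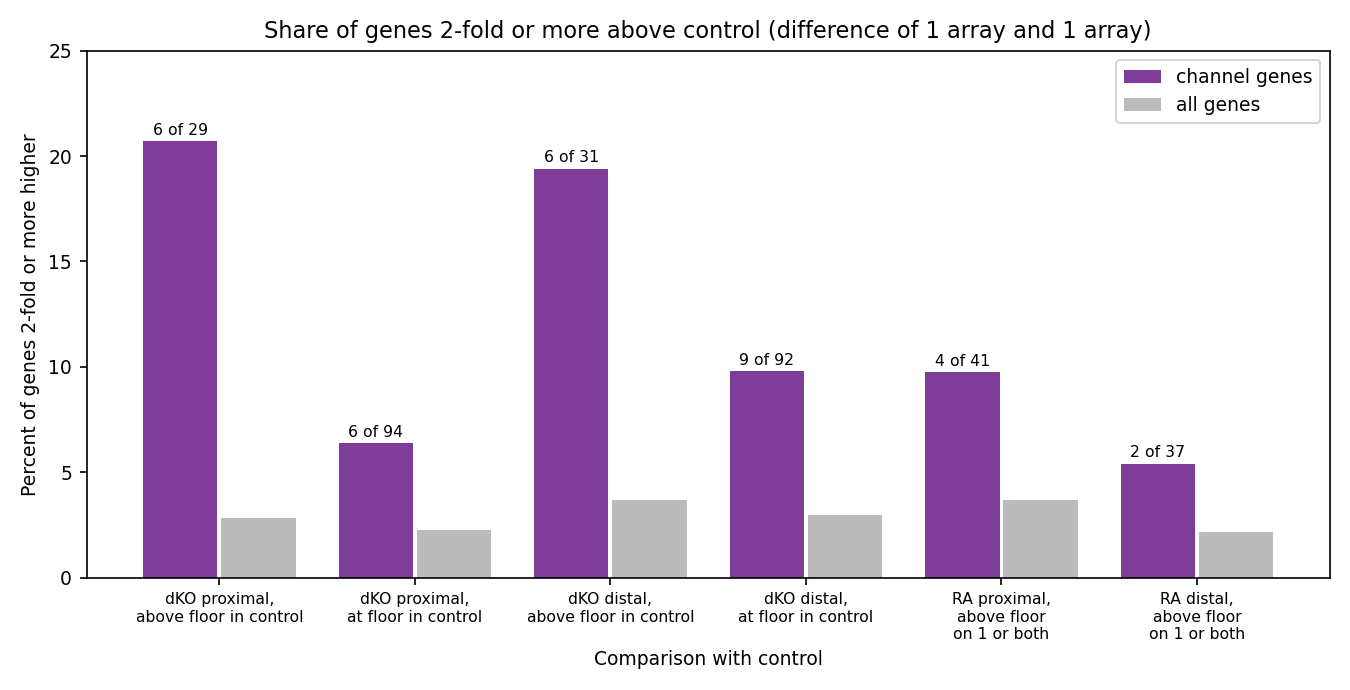
Percent of genes 2-fold or more above control (y axis) in the dKO, split by whether the control signal was above the floor, and in RA, for channel genes (purple) and all genes (grey), with the number of channel genes over each purple bar. The purple bar is above the grey one in all 6 comparisons, with 20.7% against 2.82% for genes above the floor in the proximal control and 5.41% against 2.16% for distal RA. The RA bars take genes above the floor on either array, so genes above it in RA alone could only be higher. The distal RA bar is 2 of 37 genes, and genes 2-fold lower are not drawn. Each bar rests on 1 array per group and has no error.

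An additive fit (limma) with condition and part as terms was run on the 12147 genes that exceeded the floor somewhere. It fits 1 effect of each condition to both parts and takes its error from how far the pairs of arrays depart from that, and "rose" and "fell" are used here for genes with an adjusted p under 0.05. By this fit 10 of 57 channel genes rose in the dKO, or 17.5%, where 2.21% of all genes rose. None fell, where 0.115% of all genes did, and at an unadjusted p under 0.05 limma placed 28 channel genes higher (49.1%, against 10.7% of all genes) and 0 lower (against 0.963%). The median fitted log2 effect was 0.45 over the channel genes and 0.02 over all genes tested. These counts and the median take in genes above the floor on dKO arrays alone, such as Kcnj3 and Kcnab1, which could only come out higher. They also take in genes at the floor on all control and dKO arrays, such as Cacnb1. The fitted effect of Cacnb1, 0.27, is the floor difference alone. Among genes above the floor on all 4 control and dKO arrays, 3 of 23 channel genes rose (13.0%, against 1.11% of all such genes). These 3 were Cacng4, Kcng1 and Scn8a. The other 7 were at the floor on at least 1 control array, where the value entering the fit is the floor alone. The dKO floors were 0.19 (proximal) and 0.36 (distal) higher than the control floors on the log2 scale, and fits after scaling every array to a common median or by quantiles called 4 and 3 channel genes, against 0.848% and 0.659% of all genes. Cacna1d, Cacna2d2 and Kcng1 were called under all 3 scalings. With the floor lowered to the 25th percentile 4 channel genes were called, against 0.963% of all genes, and of these Cacna2d2 and Kcnj3 were among the 10. Cacna1d and Kcng1 then had limma adjusted p of 0.0821 and 0.0503. Without the proximal RA array 22 were called (with 1225 of all 12147 genes), without the distal RA array 23 (with 1246), and without both 22, which included all 10, while that last fit, with 1 residual degree of freedom, called 1236 genes higher.

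Among calcium pores, Cacna1d rose. Its L-type channel opens at relatively negative voltages and serves pacemaking and hearing. Cacna1d had signals of 59.9 and 47.0 on the proximal and distal control arrays, 325 and 347 in the dKO and 19.4 and 51.4 in RA. Only the dKO arrays were above the floor, and they exceeded control by at least 2.34 in the proximal and at least 2.54 in the distal part on the log2 scale. The fitted dKO effect was 2.44 (SE 0.19, limma adjusted p = 0.0055). Cacna1h, a T-type pore, had 58.7 and 68.4 on the control, 202 and 209 on the dKO, and 234 and 88.0 on the RA arrays. It was higher in the dKO by at least 1.66 and by 1.61 but did not pass (1.64, SE 0.38, limma adjusted p = 0.108), and the proximal RA array was as high as the dKO arrays.

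Among calcium auxiliary subunits, Cacna2d2 and Cacng4 rose. Cacna2d2 encodes an extracellular subunit that carries calcium pores to the membrane. It had signals of 58.5 and 42.0 on the control, 276 and 230.2 on the dKO and 117 and 85.2 on the RA arrays, so both dKO arrays were the highest and both RA arrays were also above their floors. The dKO differences were at least 2.11 and at least 1.95 (fitted effect 2.03, SE 0.20, limma adjusted p = 0.0093). Cacng4, a transmembrane subunit that also traffics AMPA receptors, had 80.9 and 105 on the control, 328 and 346 on the dKO and 93.6 and 27.9 on the RA arrays. Its differences, 2.02 proximal and 1.73 distal, were both between signals above the floor (fitted effect 1.87, SE 0.26, limma adjusted p = 0.0211). Cacna2d1, the close relative of Cacna2d2, was above the floor throughout, with 249 and 157 on the control and 332 and 317 on the dKO arrays, a distal difference of 1.02, and did not pass the fit. Another Cacna2d1 probe set did not show this, with 149 and 104 on the control and 122 and 106 on the dKO arrays. Its differences were -0.29 proximally and 0.03 distally.

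Both sodium pores that rose, Scn8a and Scn1a, carry action potentials in neurons. Scn8a had signals of 148 and 119 on the control, 364 and 392 on the dKO and 122 and 105 on the RA arrays, all above the floor and with both dKO arrays clear of the other 4. It was higher by 1.30 proximally and 1.72 distally (fitted effect 1.51, SE 0.23, limma adjusted p = 0.0293). Scn1a was below the floor on both control arrays, with 33.9 and 14.0, and had 177 and 143 on the dKO and 79.1 and 20.3 on the RA arrays. Its differences were at least 1.47 and at least 1.26 (fitted effect 1.37, SE 0.18, limma adjusted p = 0.0166).

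Kcnd3, the pore of a fast-inactivating A-type potassium current, had the highest fitted dKO effect among the channel genes. Kcnd3 had 169.8 proximally and 49.2 distally in the control, 1351 and 735 in the dKO, and 440.2 and 16.0 in RA. The dKO arrays were both above every other array, and in each condition the proximal signal exceeded the distal one. Its dKO differences were 2.99 proximally and at least 3.63 distally (fitted effect 3.31, SE 0.42, limma adjusted p = 0.0166). Kcnip1, a calcium-sensing subunit that binds pores of the Kcnd class, had 24.8 and 19.2 on the control and 107 and 138 in the dKO, and 27.7 and 17.3 in RA. Kcnip1 was above the floor on the dKO arrays alone, so it could only come out higher. It was just outside the threshold (0.98, SE 0.19, limma adjusted p = 0.0567).

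Kcng1, the modifier potassium subunit that rose, conducts no current alone and assembles with Kcnb pores. It had signals of 68.4 and 82.1 on the control, 266 and 367 on the dKO and 81.1 and 88.9 on the RA arrays. The 4 arrays outside the dKO lay close together, and the differences were 1.96 and 2.16 (fitted effect 2.06, SE 0.21, limma adjusted p = 0.0093). Kcnj3, a G-protein-gated inward rectifier subunit, had 11.3 and 12.7 on the control, 125 and 215 on the dKO and 4.21 and 6.07 on the RA arrays, so it was above the floor in the dKO alone. Its differences were at least 0.96 and at least 1.86 (fitted effect 1.41, SE 0.25, limma adjusted p = 0.0442).

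Kcnk2 encodes a two-pore potassium channel that opens to stretch and to certain lipids. Kcnk2 had signals of 42.3 and 25.9 on the control, 285 and 129 on the dKO and 84.4 and 17.8 on the RA arrays. It was higher in the dKO by at least 2.15 proximally and at least 1.12 distally (fitted effect 1.64, SE 0.28, limma adjusted p = 0.0384), and within the dKO the proximal signal exceeded the distal one by 1.14. Kcnk6, of the same family, had 84.6 and 97.6 on the control, 208 and 178 on the dKO and 193 and 143 on the RA arrays and did not pass (1.08, SE 0.24, limma adjusted p = 0.0914). Kcne1l, a single-pass auxiliary subunit of voltage-gated potassium pores, had 68.7 and 54.4 on the control, 167 and 155 on the dKO and 45.3 and 21.3 on the RA arrays. Its differences were 1.28 and at least 1.38 (fitted effect 1.33, SE 0.18, limma adjusted p = 0.0208).

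**Figure D2:**
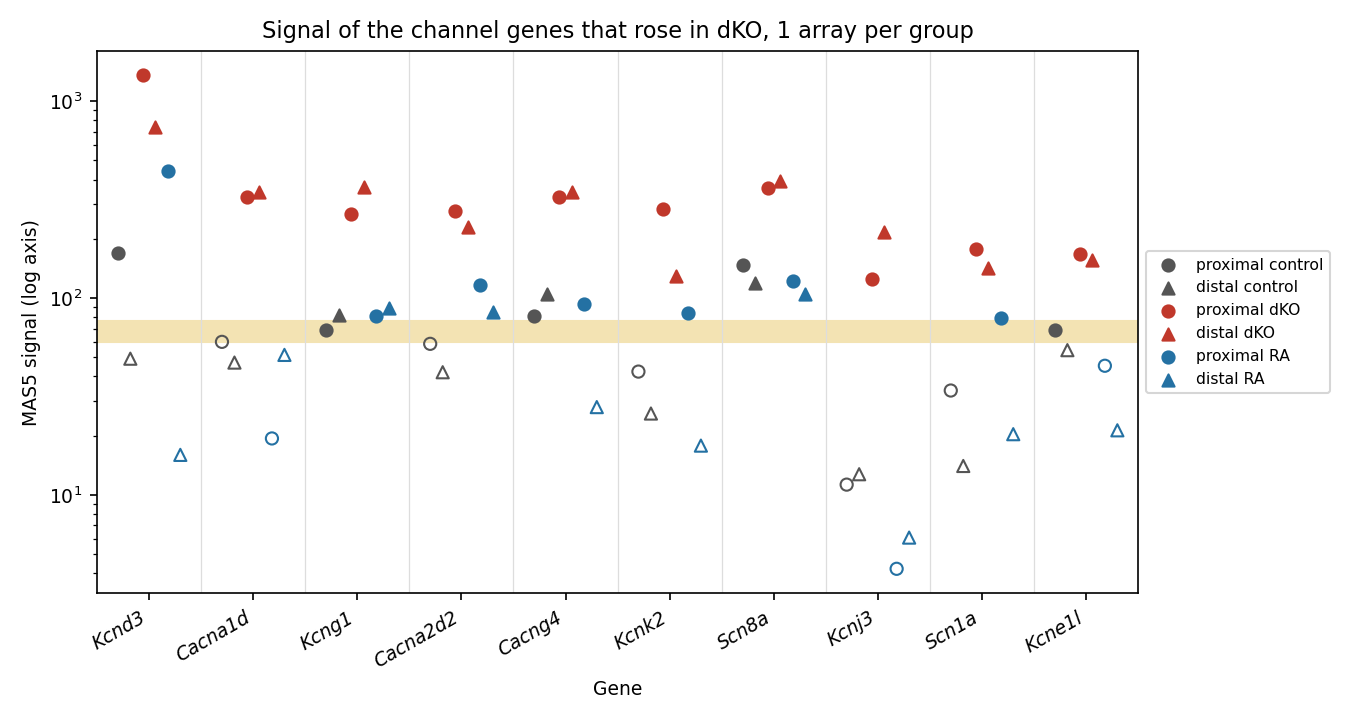
MAS5 signal (log axis) of the 10 channel genes that rose in the dKO, 1 point per array, with open symbols for signals below the floor of their own array and a band over the range of the 6 floors (59.5 to 76.1). For each gene both dKO arrays (red) lie above both control arrays (grey), and Kcnd3 reached 1351 in the proximal dKO.

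**Figure D3:**
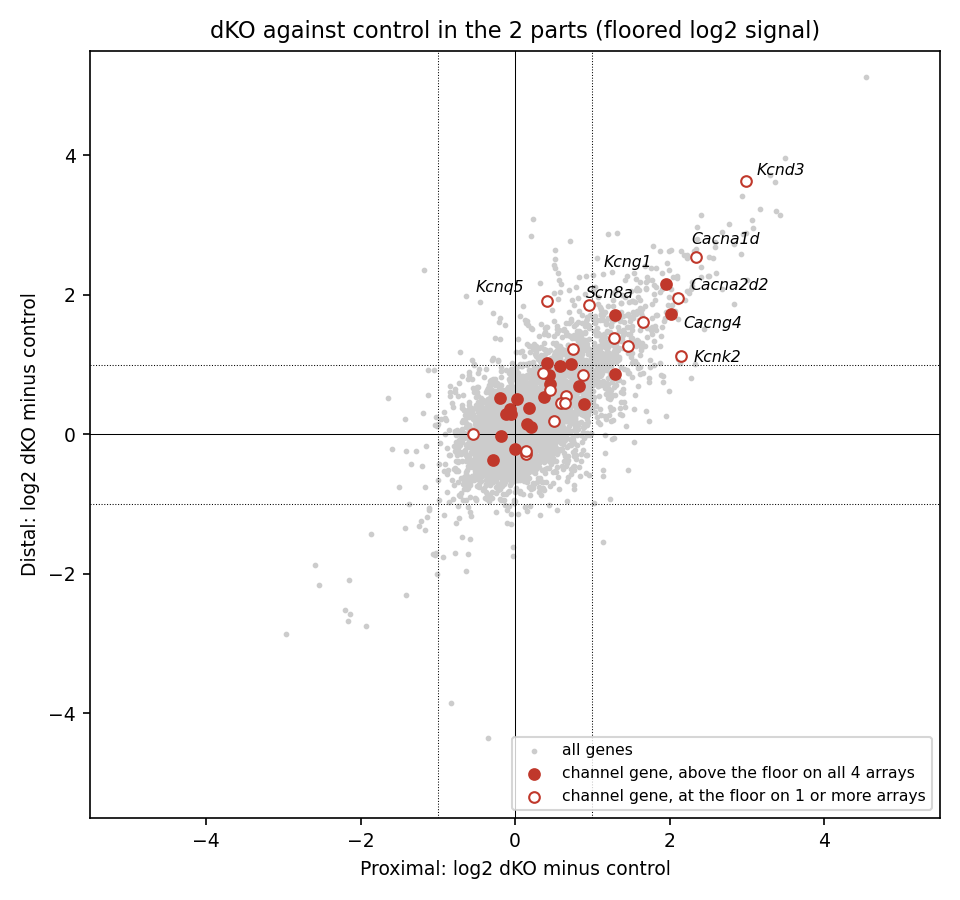
Log2 difference of dKO from control in the proximal part (x axis) and the distal part (y axis) for 11348 genes (grey) and 43 channel genes (red; open where 1 or more of the 4 arrays was at the floor), with dotted lines at 2-fold. Kcnd3 lies farthest out among the channel genes at 2.99 and at least 3.63, and no channel gene lies beyond 2-fold to the lower side in either part.

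Other probe sets of the same genes did not all show these differences. Of the 10 genes, Kcne1l and Kcnk2 have 1 probe set. Of the 8 with others, Cacng4 and Scn8a had another probe set above the floor on the dKO arrays, and the remaining 6 had none. The second probe set of Scn8a had signals of 85.9 and 87.8 on the control and 211 and 265 on the dKO arrays, differences of 1.29 and 1.59. That of Cacng4 had 43.0 and 63.2 on the control and 112 and 149 on the dKO arrays. When each gene was read as the mean of its probe sets, 3 channel genes were called in the dKO (Cacng4, Kcne1l and Kcnk2).

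Other channel genes above the floor differed from control by less, or in 1 part. Kcnmb4, an auxiliary subunit of large-conductance calcium-activated channels, had signals of 331 and 265 on the control and 548 and 534 on the dKO arrays, differences of 0.73 and 1.01. Kcnk1, a two-pore channel, had 825 and 1034 on the control and 1469 and 1673 on the dKO arrays, differences of 0.83 and 0.69. Neither passed the fit. Kcnq5, a voltage-gated pore of the M-current class, was higher by at least 1.91 distally and by 0.41 proximally. Kcna5, a delayed rectifier pore, was 2-fold higher in the proximal dKO, with 133 against 32.8, but had 69.1 in the distal dKO, below the floor.

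Promoter windows are shown for channel genes that rose, because the dinucleotide CG is a sequence feature closely tied to Polycomb binding. RefSeq windows of 300 bases, from 250 before the transcript start to 50 after it, were available for 93 of the 123 channel genes, and Kcng1 and Cacng4 had none among those that rose. Each sequence is from GRCm38.p6, runs 5′ to 3′ on the strand of the gene, and has every CG in capitals, the letters CG reading the same on both strands. The first 5 are CG-rich windows, and that of Scn1a is shown as a CG-poor contrast.
Cacna1d: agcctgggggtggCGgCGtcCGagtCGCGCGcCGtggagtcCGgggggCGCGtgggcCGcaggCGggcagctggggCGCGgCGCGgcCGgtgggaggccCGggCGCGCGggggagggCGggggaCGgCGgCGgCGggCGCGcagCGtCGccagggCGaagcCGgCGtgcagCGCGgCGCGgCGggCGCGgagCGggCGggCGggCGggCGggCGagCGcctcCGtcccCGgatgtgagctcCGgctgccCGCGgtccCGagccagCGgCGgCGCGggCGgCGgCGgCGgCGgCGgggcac
Kcnd3: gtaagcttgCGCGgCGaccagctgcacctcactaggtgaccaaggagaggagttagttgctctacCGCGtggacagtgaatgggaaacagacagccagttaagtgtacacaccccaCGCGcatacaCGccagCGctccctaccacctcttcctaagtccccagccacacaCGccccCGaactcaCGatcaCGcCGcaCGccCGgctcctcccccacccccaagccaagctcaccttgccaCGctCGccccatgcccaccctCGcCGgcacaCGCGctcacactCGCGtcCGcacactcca
Cacna2d2: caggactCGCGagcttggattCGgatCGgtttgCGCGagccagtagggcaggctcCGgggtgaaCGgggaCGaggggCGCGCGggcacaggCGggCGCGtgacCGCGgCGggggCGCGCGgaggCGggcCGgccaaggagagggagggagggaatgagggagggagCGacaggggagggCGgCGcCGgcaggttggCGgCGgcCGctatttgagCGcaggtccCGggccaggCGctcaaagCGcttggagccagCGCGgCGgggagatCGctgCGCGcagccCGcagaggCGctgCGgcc
Scn8a: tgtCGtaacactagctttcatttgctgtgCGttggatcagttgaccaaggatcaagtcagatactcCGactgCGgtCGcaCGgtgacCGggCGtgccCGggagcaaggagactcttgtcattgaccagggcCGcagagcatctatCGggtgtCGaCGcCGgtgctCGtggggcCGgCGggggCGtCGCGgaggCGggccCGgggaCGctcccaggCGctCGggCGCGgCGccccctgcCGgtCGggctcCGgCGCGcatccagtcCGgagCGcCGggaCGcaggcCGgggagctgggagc
Kcnk2: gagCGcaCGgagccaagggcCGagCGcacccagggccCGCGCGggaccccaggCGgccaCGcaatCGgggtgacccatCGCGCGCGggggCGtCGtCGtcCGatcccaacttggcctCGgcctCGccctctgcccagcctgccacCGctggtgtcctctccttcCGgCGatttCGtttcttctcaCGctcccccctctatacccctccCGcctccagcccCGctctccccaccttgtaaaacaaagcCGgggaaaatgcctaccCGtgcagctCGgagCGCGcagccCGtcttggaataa
Scn1a: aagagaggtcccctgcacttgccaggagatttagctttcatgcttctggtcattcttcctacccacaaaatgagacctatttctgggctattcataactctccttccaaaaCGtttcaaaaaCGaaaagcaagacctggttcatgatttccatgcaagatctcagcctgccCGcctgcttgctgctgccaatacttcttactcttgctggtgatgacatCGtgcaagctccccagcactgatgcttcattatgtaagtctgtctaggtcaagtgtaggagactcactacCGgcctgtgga

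These windows hold 63 CG for Cacna1d (chr14:30353437-30353736, minus strand), 25 for Kcnd3 (chr3:105451640-105451939, plus strand) and 43 for Cacna2d2 (chr9:107399630-107399929, plus strand). They hold 38 for Scn8a (chr15:100870395-100870694, plus strand), 33 for Kcnk2 (chr1:189343304-189343603, minus strand) and 5 for Scn1a (chr2:66440788-66441087, minus strand). A window was called dense where its observed over expected CG ratio was at least 0.6 and its GC content at least 50%, taking the window with most CG where a gene had several. Of the channel genes that rose, 5 of 8 with a window (62.5%) were dense (Cacna1d, Kcnd3, Cacna2d2, Scn8a and Kcnk2), with a median of 29 CG. Kcne1l and Kcnj3, with 12 and 10 CG, were not dense, and their windows are not printed. Of the channel genes tested that did not pass for the dKO, 17 of 34 (50%) were dense, with a median of 18, and of those at the floor on every array 15 of 51 (29.4%), with a median of 10. Over all genes on the arrays 57.2% were dense, and over all genes that rose in the dKO 72.9%. The number of windows to choose from was not equal: the mean per gene was 1.63 for channel genes that rose, 1.53 for those tested that did not pass, 1.24 for those at the floor, 1.40 for all genes that rose and 1.25 for all genes. No binding was measured here, and a dense window is a description of letters.

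Markers of other cell types were read beside these results. Of 10 neuronal markers 7 exceeded the floor on 1 or more arrays, and 3 of 7 were at least 2-fold higher in the proximal and 4 of 7 in the distal dKO, with 1 of 7 lower in each (median log2 differences 0.58 and 1.26). For this and the following marker lists, the shares of all genes were 4.07% and 5.32% higher and 0.363% and 0.524% lower. Their summed signal was 1866 and 1347 on the control, 2715 and 2526 on the dKO and 1182 and 1098 on the RA arrays. The intermediate filament genes Ina (43.8 and 59.1 on the control, 632 and 786 on the dKO arrays), Nefl (220.1 and 143 against 709 and 762) and Nefm (70.6 and 44.3 against 221 and 175) rose in the dKO by the same fit, with limma adjusted p of 0.00343, 0.0276 and 0.0151. The synaptic and neuronal markers Snap25, Syt1 and Elavl3 were at the floor on every array. Stmn2 had 209 and 69.4 on the control against 312 and 166 on the dKO arrays, Tubb3 had 95.8 and 266 on the control against 139 and 182 on the dKO arrays, and Dcx had 1049 and 627 against 468 and 241. Of 4 Schwann cell and neural crest markers on the array, Sox10, Foxd3 and Fabp7 were at the floor throughout and Erbb3 was above it on all arrays, at 354 to 543. Muscle precursor markers had summed signals of 4008 and 1252 on the control and 5692 and 2485 on the dKO arrays. Of these markers Myod1 and Myog were at the floor throughout, and 0 of the other 5 rose, where 2.21% of all genes did. At 2-fold 1 of 5 was higher in the proximal dKO, Pax7 by at least 1.82, and 3 of 4 in the distal dKO, Pax3 by 1.83, Pax7 by at least 1.49 and Lbx1 by 1.01 (median log2 differences 0.60 and 1.25). Myf5 went the other way, with 103 and 34.9 on the control and 0.81 and 0.70 on the dKO arrays. The floor limits its proximal difference to -0.50, as a bound. Contractile muscle markers were 2-fold higher in neither part of the dKO, and those of endothelium summed to 2916 and 2186 on the control and 3997 and 2877 on the dKO arrays with none 2-fold higher. The part of the neuronal and muscle precursor markers in the channel results was not tested.

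Other channel and transport genes were read from lists beside these families. By the fit 2.21% of all genes rose in the dKO and 0.115% fell. Of 43 ligand-gated channel genes on the array, 19 were above the floor at least once, and 3 rose in the dKO: Grin2d, a glutamate receptor subunit, Gabra4, a GABA receptor subunit, and Chrna4, a nicotinic receptor subunit. All 3 were at the floor on both control arrays; Gabra4 had 40.5 and 33.7 there and 227 and 258 on the dKO arrays (fitted effect 1.97, limma adjusted p = 0.00834). Of 42 other cation channels, 19 were above the floor and 1 rose, the proton-gated Asic1, with 23.1 and 31.8 on the control and 181 and 248 on the dKO arrays. Of 17 gap junction and pannexin genes, 9 were above the floor, Panx2 rose and Gja3 fell. Gja3, a connexin, had 336 and 1300.1 on the control, 66.2 and 227 on the dKO and 69.7 and 306 on the RA arrays. Of 14 partners of channels, 9 were above the floor and 1 rose, Fgf11, an intracellular factor that binds sodium channels. Chloride channels (9 of 14 above the floor), ion pumps and exchangers (12 of 16) and calcium release and store entry genes (7 of 10) had 0 that rose and 0 that fell in the dKO. In lists this short a count of 0 cannot be told from the share over all genes.

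The comparison of RA with control asked which channel transcripts differed after exposure. The Ring1A label, embryo sex as read from Xist and the Y-linked Eif2s3y, and the BioB-5 spike-in signal changed alongside. None of these can be told apart from RA exposure here. Shares of channel genes at 2-fold are given beside those of all genes, which were also seldom 2-fold the same way in both parts. In the proximal part 4 of 41 were at least 2-fold higher (9.76%, against 3.69% of all genes) and 2 lower (4.88%, against 6.8%). In the distal part 2 of 37 were higher (5.41%, against 2.16%) and 2 lower (5.41%, against 2.13%). In both parts 0 of 47 were higher, against 0.837% of all genes, and 1 was lower, Cacng7, against 0.93%. By the additive fit 0 of 57 rose, where 0.305% of all genes did, and 0 fell, where 0.239% did. At an unadjusted p under 0.05 limma placed 6 of 57 channel genes higher (against 6.89% of all genes) and 1 lower (1.75%, against 9.84%). Leaving out an array changed these counts. Without the distal RA array 11 channel genes were called higher, while 20% of all genes were, and 2 lower, while 20.2% were. Without the proximal RA array 4 were higher, against 3.85%, and 2 lower, against 5.79%. Without the proximal or distal control array 2 and 1 were higher, against 0.766% and 0.848%. Without the proximal or distal dKO array 4 and 3 were higher, against 1.89% and 1.88%, and 1 was lower in each, against 2.62%. Without both dKO arrays 4 were higher, against 1.87%, and 1 lower, against 2.55%.

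Cacng7, a calcium channel auxiliary subunit that also binds AMPA receptors, had signals of 172 and 147 on the control, 152 and 145 on the dKO and 79.1 and 66.0 on the RA arrays. Both RA arrays were below the other 4, and the distal one was below its floor. Its differences were -1.12 and, as a bound, -1.11 on the log2 scale (fitted effect -1.11, SE 0.19, limma adjusted p = 0.0726). Kcnk1 was lower on the proximal RA array alone, with 394 against 825 in the proximal control and 919 on the distal RA array. Kcnmb4 was lower on the distal RA array, with 126 against 265.

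Cacna1h, Kcnd3, Kcnh3 and Kcnk6 were the 4 channel genes 2-fold higher in the proximal part after RA. Kcnd3 had 440.2 against 169.8, a difference of 1.37, and was at the floor on both distal arrays. Kcnk6 was higher in both parts, 193 against 84.6 and 143 against 97.6. Kcnh3, a voltage-gated pore, had 190.4 on the proximal RA array and 61.2 to 85.2 on the other 5. Cacng6, a calcium channel auxiliary subunit, was above the floor on the distal RA array alone, with 188 against 22.0 in the distal control, a difference of at least 1.66. That array also stood out for macrophage markers, with a summed signal of 2278 against 858 on the distal control, and their part in this result was not tested.

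Kcnq1ot1 is a long noncoding RNA made antisense to Kcnq1 within an imprinted domain and is a member by name alone. It had signals of 880 and 853 on the control, 843 and 1100.1 on the dKO and 1748 and 2316 on the RA arrays. Both RA arrays were above the other 4, with a fitted effect of 1.22 (SE 0.19, limma adjusted p = 0.0647). Its other probe sets differed in the proximal part. A second probe set gave RA differences of 1.44 and 1.41, with 187 and 219 on the control and 506 and 581 on the RA arrays. Another gave -1.02 and 1.07, with 793 and 659 on the control and 392 and 1385 on the RA arrays.

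**Figure D4:**
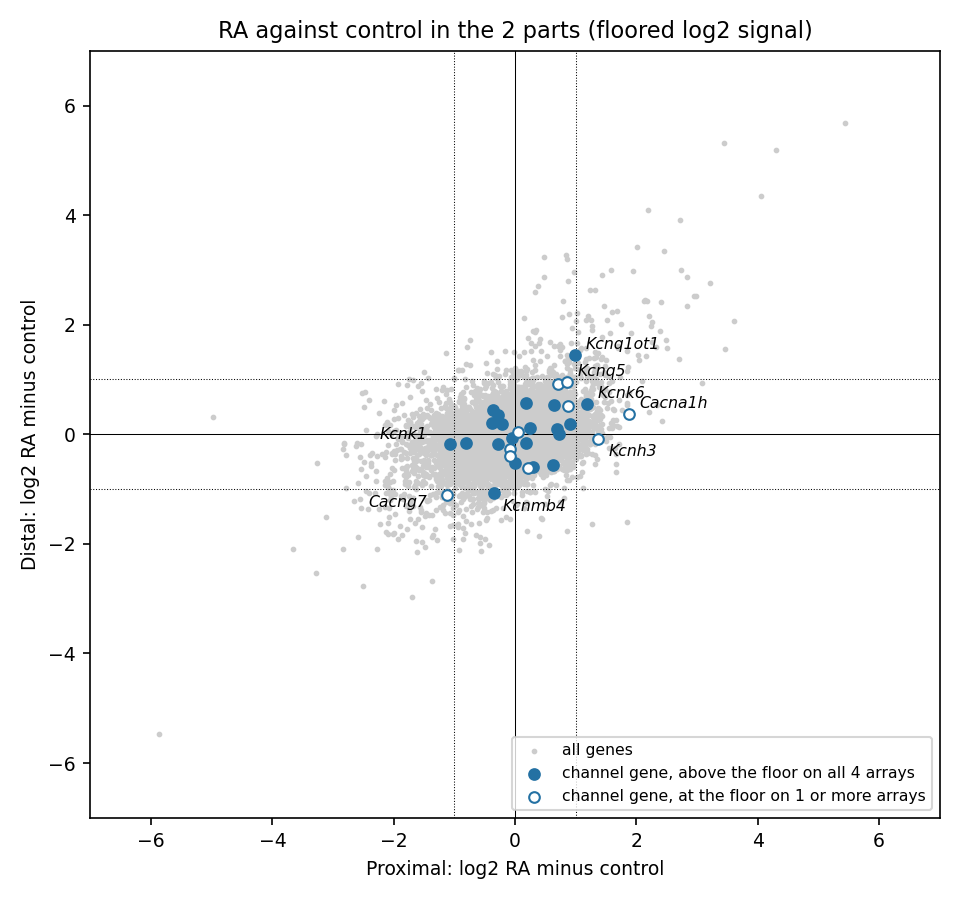
Log2 difference of RA from control in the proximal part (x axis) and the distal part (y axis) for 11087 genes (grey) and 31 channel genes (blue; open where 1 or more of the 4 arrays was at the floor), with dotted lines at 2-fold. Cacng7 is the only channel gene past 2-fold the same way in both parts, at -1.12 and -1.11, and Cacna1h is past it in the proximal part alone, by at least 1.87.

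The proximal and distal parts were compared within each condition. In the control 3 of 34 channel genes were at least 2-fold higher proximally, against 1.35% of all genes, and 0 were lower, against 1.4%. Those 3 were the voltage-gated potassium pores Kcnd3, Kcnh2 and Kcnq5. In the dKO 1 of 45 was higher proximally (Kcnk2), against 0.515%, and 1 lower (Cacna1b), against 0.722%. In RA 7 of 43 were higher proximally, against 4.4%, and 2 lower, against 6.16%. The 7 included Kcnd3, Kcnh2 and Kcnq5, and the RA pair holds the array with the lowest correlations. None was 2-fold higher proximally in all 3 pairs, against 0.198% of all genes, and none lower, against 0.173%. The fit called 0 channel genes for position in either direction, where it called 0% of all genes, and at an unadjusted p under 0.05 limma placed 3 channel genes higher (5.26%, against 4.87% of all genes) and 4 lower (7.02%, against 4.64%). Without any 1 of the 6 arrays Kcnd3, Kcnh2 and Kcnq5 were called higher proximally, in fits that leave 1 residual degree of freedom and called 0.971% to 1.78% of all genes higher. The error of these fits rests mostly on a prior drawn from all genes, with 12.7 or more degrees of freedom against 4.64 with all 6 arrays. The added calls are therefore not a check of the fit with all arrays, in which none of the 3 passed.

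Kcnq5 had signals of 302 proximally and 52.9 distally in the control, 401 and 224 in the dKO and 546 and 115 in RA. The proximal signal was the higher in each pair, by at least 2.34, by 0.84 and by 2.24 (fitted effect 1.81, SE 0.32, limma adjusted p = 0.154). Kcnh2, a delayed rectifier pore known for its part in cardiac repolarisation, had 297 and 119 in the control, 260.01 and 172 in the dKO and 459.9 and 81.2 in RA. Its proximal excess was 1.32, 0.60 and 2.50 (fitted effect 1.47, SE 0.35, limma adjusted p = 0.243). Kcnd3 exceeded its distal signal by at least 1.51, by 0.88 and by at least 2.69 (limma adjusted p = 0.194). For these 3 genes, taken because they were 2-fold higher proximally in the control, the difference between parts was lowest in the dKO. The share of all genes 2-fold higher proximally was also lowest there, 0.515% against 1.35% in the control and 4.4% in RA. Whether the difference between parts changed between conditions has no test with 1 array per group.

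Cacna1b, an N-type calcium pore of nerve terminals, was lower proximally in each pair, with 55.4 against 113 in the control, 87.2 against 176 in the dKO and 33.0 against 102 in RA (fitted effect -0.84, SE 0.15, limma adjusted p = 0.154). Kcne3, an auxiliary subunit of voltage-gated potassium pores that is also found in epithelia, had 710.2 and 1022 in the control, 582 and 790.5 in the dKO and 1112 and 1474 in RA, with proximal minus distal differences of -0.53, -0.44 and -0.41. Surface ectoderm markers were also lower proximally, with summed signals of 7243 against 12382 in the control, and muscle precursor markers were higher there, 4008 against 1252. Their part in the position values was not tested.

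**Figure D5:**
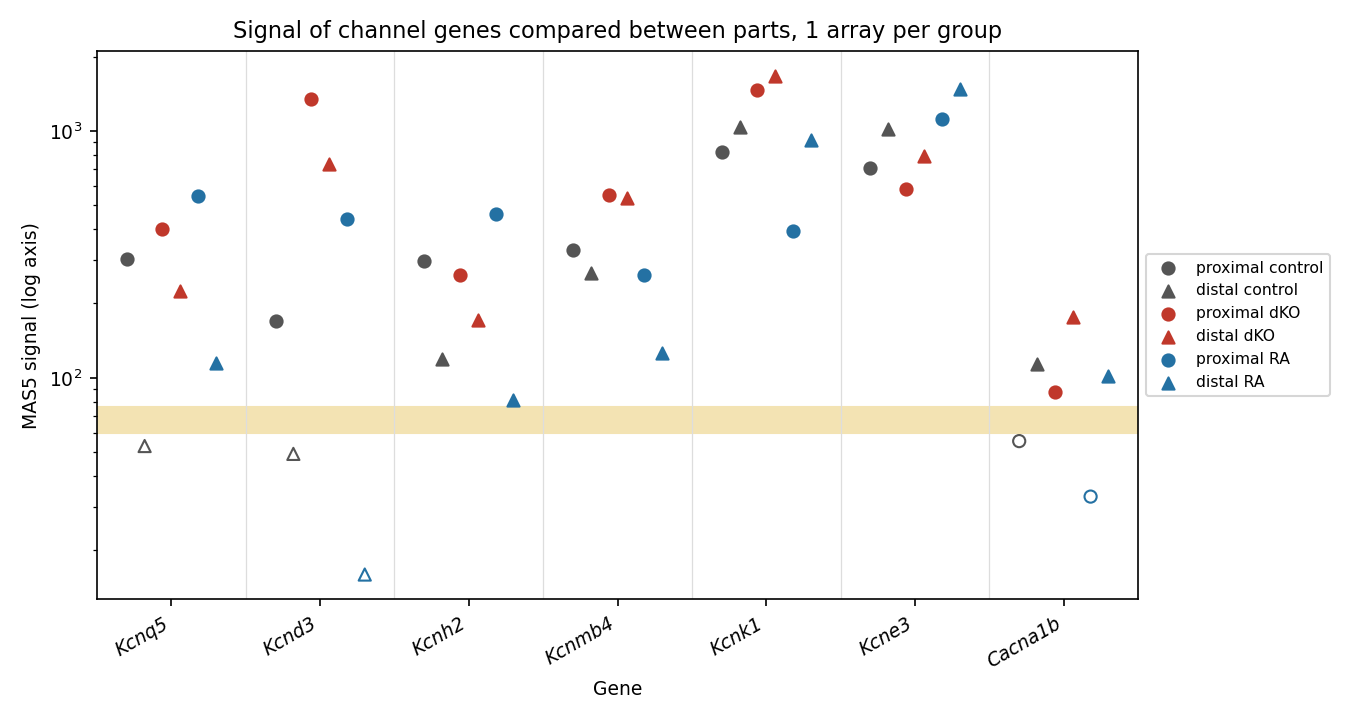
MAS5 signal (log axis) of 7 channel genes compared between parts, 1 point per array, with circles for proximal and triangles for distal arrays, open symbols for signals below the floor of their own array, and a band over the range of the 6 floors (59.5 to 76.1). Kcnq5, Kcnd3 and Kcnh2 have the circle above the triangle in each condition, as in the control for Kcnq5 (302 against 52.9), and Kcne3 and Cacna1b have it below.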

How the data were processed

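RNA was measured on 6 Affymetrix arrays, 1 for each part and condition. Per the labels' protocols, the deposited values are linear signal intensity from MAS5, scaled by the authors so that each array's mean is 500 after the outer 2% of probe sets are trimmed, with no MAS5 version named in the sources used here. Of 45101 probe sets, 34945 have a single gene symbol and are not controls. A gene's brightest probe set by mean log2 was used, and all 123 channel genes matched a RefSeq gene ID. Signals under the array median were set to it, and genes were counted at 2-fold, each comparison using genes above the floor on at least 1 of its arrays. The fit used limma 3.58.1 (trended prior, Benjamini-Hochberg over 12147 genes), with 2 residual degrees of freedom and a prior of 4.64, so it is not a replicate test, and p-values of genes mostly at the floor can be too small. The number of arrays limits the precision.

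The channel genes and the lists were chosen with earlier results of these data known. Genes named are Cacna1d and Kcnk2, those past the fit, those 2-fold the same way in both parts for dKO or RA or in all 3 pairs, up to 8 per direction at 2-fold in each of 5 comparisons, the 10 with the highest mean log2 signal, and Kcnj2, Kcnh1, Kcnk9, Kcnj8, Cacna1c and Cacna1g, of which Kcnk9 is not analysed here. Others, such as Kcnip1, Kcna5, Cacna2d1 and Cacna1b, were named after their values were seen. Alternatives covered the floor, scaling, the choice of probe set, filters and arrays left out. Lists of erythroid, macrophage, surface ectoderm and limb mesenchyme markers had 0 genes that rose in the dKO, where 2.21% of all genes did.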

Additional observations from a re-analysis of the deposited data

How the results depend on the processing

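The channel genes called higher in the dKO numbered 10 in the fit as reported (2.21% of all genes), 4 with the floor at the 25th percentile (0.963%; 2 of them among the 10), 4 after median scaling (0.848%), 3 after quantile normalization (0.659%), 3 with probe sets averaged (1.69%) and 5 with a signal above the floor on at least 3 arrays (0.826%). With no filter on low signals they were 96, where 41.5% of all genes were called and unequal floors set the values of genes at the floor. With an array left out they ranged from 9 to 23 (264 to 1246 of 12147 genes; 22 without both RA arrays, chosen after seeing the data), and none was lower in any of these. Calls for RA went from 0 to 5 higher and 2 lower with no filter (2.95% and 3.9% of all genes), 1 to 11 higher and 0 to 2 lower with an array left out, and 4 higher and 1 lower without both dKO arrays, also chosen after seeing the data. Calls for position went from 0 to 4 higher and 3 lower with no filter (1.78% and 2.44%), and 3 higher and 0 to 2 lower with an array left out. Fits without an array have 1 residual degree of freedom and a prior of 12.7 or more, against 4.64 with all arrays. Their added calls rest mostly on that prior. Counts at 2-fold moved most with the floor. With the 25th percentile as floor they were 31 higher and 2 lower (proximal dKO), 36 and 2 (distal dKO), 18 and 12 (proximal RA), 15 and 11 (distal RA), and 7 and 2 (position, control). With probe sets averaged they were 5 higher (proximal dKO), 4 higher (distal dKO), 1 higher and 0 lower (proximal RA), 1 and 1 (distal RA) and 1 higher (position). With both arrays required above the floor they were 6 higher in each dKO part, 1 and 1 in distal RA and 1 higher for position. Median scaling and quantile normalization each gave 10 of 47 higher in the distal dKO, with 321 and 422 of all 11646 genes. Each gave 11 of 45 higher in the proximal dKO, with 328 and 399 of 11580. In proximal RA they gave 5 and 6 of 41 higher, with 460 and 495 of 11521, and quantile normalization gave 1 lower. Apart from the floors and the fewer genes or arrays, causes were not tested. Of 1584 alternative values of the named genes, 1432 stayed on the same side of the threshold, 43 lost and 109 gained a call. Direction was compared only for values past the threshold in the main setting, of which 0 reversed. Median scaling took the median log2 difference of all genes from 0.02 to -0.17 in the proximal and from 0.01 to -0.35 in the distal dKO, and from -0.04 to -0.24 in distal RA; that of the channel genes went from 0.50 to 0.31 and from 0.63 to 0.28 in the dKO. No paired analysis was possible because each group has 1 array, and the part is already a term of the fit.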
